A study of Mus musculus with 8 samples.

Results

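Neutrophils and monocytes carry a small set of abundant transcripts, and 10 of these genes were read in mouse liver on 8 arrays. The genes were the calgranulins S100a8 and S100a9, the granule protein genes Prtn3, Elane, Mpo and Ngp, the lysozyme gene Lyz2, the integrin gene Itgam, the chemokine receptor gene Ccr2 and the chemokine gene Ccl9. They were 10 of the 18193 genes with a probe set of their own, and were read on all 14 probe sets that the platform annotation assigns to them. They were selected on the differences between the arms in these signals, which are therefore described below without a test and support nothing by themselves.

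The arrays came from 2 arms, each on days 0, 1, 2 and 5 after TCPOBOP, a chemical that activates the receptor CAR and makes hepatocytes divide. All mice carried floxed Met alleles and a tamoxifen-inducible Cre (labelled Metff/ff:ERCre+/+). Mice labelled MET KO + EGFRi, called the combined arm below, had received 5 tamoxifen injections (100 µl at 10 mg/ml), which deleted Met throughout the body and not in hepatocytes alone. This arm also ate canertinib, an EGFR inhibitor, aimed at 80 mg/kg per day, from 1 day before TCPOBOP. Control littermates were injected with corn oil only, so tamoxifen, the Met deletion and the drug diet differed between the arms together and cannot be told apart. TCPOBOP was gavaged once at 3 mg/kg, at least 5 days after the last tamoxifen injection. Livers of each arm and day were pooled for 1 array, so no group had a replicate. The labels do not give age, sex, the number of mice per pool or what mice of day 0 received.

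Neutrophils store proteases, peroxidase and antimicrobial proteins in granules that are filled at successive stages of their growth in the bone marrow. Transcripts of the primary granule (Prtn3, Elane, Mpo) belong to early precursors and those of the secondary granule (Ngp) to later ones, while S100a8 and S100a9 remain abundant in mature cells. The S100A8 and S100A9 proteins pair to form calprotectin, which binds calcium and zinc and acts as an inflammatory signal. Monocytes leave the marrow by way of the receptor CCR2, and with resident macrophages they express Lyz2 and Itgam, which encodes CD11b. CCL9 is a chemokine of mice that attracts cells bearing CCR1.

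The upstream sequences of 4 of these genes are shown because they form 2 pairs of adjacent genes, Prtn3 with Elane and S100a8 with S100a9. The Elane signal did not follow that of its neighbour Prtn3 between the arms, whereas both calgranulins were higher in the same arm. The sequences are the 250 bases before the annotated start, from RefSeq on build GRCm38.p6, written 5′ to 3′ on the strand of the gene. They lie at chr10:79879417-79879666 for Prtn3, chr10:79886062-79886311 for Elane and chr3:90668821-90669070 for S100a8, all on the plus strand, and at chr3:90695722-90695971 on the minus strand for S100a9. Capitals mark GAGGAAGT, a purine-rich motif of the kind bound by the myeloid factor PU.1, and TTGCNNAA, a motif of the C/EBP family, each on either strand.
Prtn3: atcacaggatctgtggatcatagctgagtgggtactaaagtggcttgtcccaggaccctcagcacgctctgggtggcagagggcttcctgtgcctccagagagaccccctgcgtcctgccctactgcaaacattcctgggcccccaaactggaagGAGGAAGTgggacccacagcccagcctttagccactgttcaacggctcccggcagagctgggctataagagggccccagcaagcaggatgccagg
Elane: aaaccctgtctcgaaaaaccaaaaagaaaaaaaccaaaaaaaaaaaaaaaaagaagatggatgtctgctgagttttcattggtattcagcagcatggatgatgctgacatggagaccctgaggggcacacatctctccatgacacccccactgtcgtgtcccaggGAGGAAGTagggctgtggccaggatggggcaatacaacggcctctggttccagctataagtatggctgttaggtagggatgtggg
S100a8: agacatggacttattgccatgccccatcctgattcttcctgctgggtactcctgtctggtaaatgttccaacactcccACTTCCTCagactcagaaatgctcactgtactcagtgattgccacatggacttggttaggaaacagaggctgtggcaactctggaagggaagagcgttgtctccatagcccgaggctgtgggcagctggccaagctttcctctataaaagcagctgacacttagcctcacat
S100a9: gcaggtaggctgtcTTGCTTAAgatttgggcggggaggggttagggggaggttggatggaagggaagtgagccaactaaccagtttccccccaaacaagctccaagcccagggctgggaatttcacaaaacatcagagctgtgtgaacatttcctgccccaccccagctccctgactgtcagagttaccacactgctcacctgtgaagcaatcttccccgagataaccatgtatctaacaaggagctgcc

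GAGGAAGT was found before 4 of the 10 genes. It began 95 bases before the start of Prtn3, 85 before that of Elane and 224 before that of Mpo, and on the other strand it spanned bases 172 to 165 before that of S100a8. Of 32851 annotated upstream sequences of 250 bases, 2.44% held it. Prtn3 and Elane thus share this motif at similar distances, and its part in their signals was not tested. Its shorter core GAGGAA, contained in GAGGAAGT, was present before the same 4 genes and Itgam (23.3% of all). TTGCNNAA was found before S100a9 and Ngp (9.56% of all), and in Ngp it occurred at 138 and at 11 bases before the start. TATAAA was found before S100a8 and Ccl9 (12.4% of all). Neither TTCNNNGAA, a STAT-type motif (7.02% of all), nor AGAACA, a motif that matches part of the glucocorticoid response element (16.1% of all), was found before any of the 10 genes. A match of letters is not a binding site.

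The deposited MAS5 signals are linear, and each array had a median over 45101 probe sets of 224 to 251. Albumin (Alb) had signals of 37254 to 77082, as in liver. Cyp2b10, the best known target of CAR, had 444 and 356 in the control and combined arrays of day 0 and 32027 to 48292 in the other 6. Met itself did not separate the arms. Its probe sets had 786, 561, 359 and 531 and 1444, 926, 1336 and 1149 in control on days 0, 1, 2 and 5, and 640, 532, 650 and 389 and 1502, 1049, 2034 and 1358 in the combined arm. Whether either lies in the deleted part of the gene is not known here, so these signals do not check the deletion. The ratio of 3′ to 5′ actin probe sets, a measure of RNA integrity, was 1.57 to 1.90 in 7 arrays and 2.36 in the combined arm at day 5. Below, a log2 difference is between values of log2(signal + 71), where 71 is the lower quartile of all signals, so that differences of weak genes are understated. Values of different probe sets are not compared with each other as levels.

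S100a8 and S100a9 were higher in the combined arm on each of the 4 days, already on day 0, and varied little from day to day. S100a8 had signals of 454, 515, 420 and 680 in control on days 0, 1, 2 and 5, and of 2468, 2056, 2068 and 2140.0 in the combined arm. The lowest combined-arm signal was 3.02 times the highest control signal, so the arms did not overlap. S100a9 had 321, 358, 487 and 392 in control and 1564, 1317, 1331 and 1419 in the combined arm. Here too the arms lay apart, with the lowest combined-arm signal at 2.71 times the highest control signal. The mean log2 difference was 1.95 ± 0.31 (SD over 4 days) for S100a8 and 1.69 ± 0.30 for S100a9. Within the combined arm the highest signal was 1.20 times the lowest for S100a8 and 1.19 times for S100a9, and within control 1.62 and 1.51 times. The S100a8 probe set is of a type (_s_at) that can also bind related transcripts. In RNA of whole liver, more cells of a type and more RNA per cell cannot be told apart. The summed signal of genes shared by all leukocytes was 6828 to 9171 in control and 8887 to 11315 in the combined arm. Bright probe sets weigh most in such a sum, and the part of leukocytes in these differences was not tested.

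**Figure D1:**
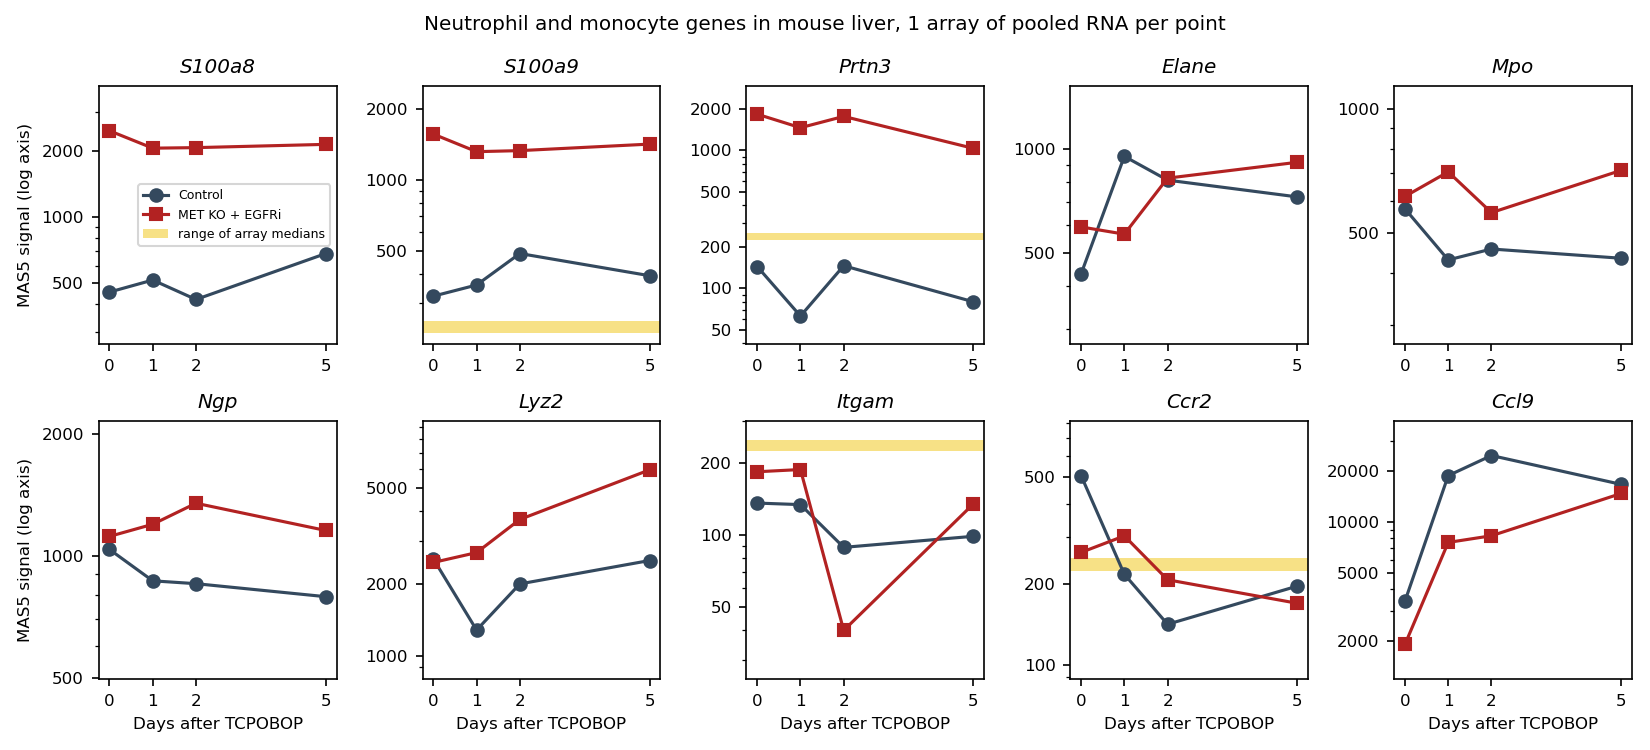
MAS5 signal (vertical log axis, a different range in each panel) against days after TCPOBOP for the 10 genes, from the probe set with the highest mean. Circles are control and squares MET KO + EGFRi, each from 1 array of pooled RNA, and the yellow band spans the array medians of 224 to 251. S100a8, S100a9, Prtn3 and Ngp show arms that do not overlap, and Ccl9 rises steeply in both arms.

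Prtn3, which encodes the granule protease proteinase 3, stood furthest apart of the 10 genes. It had signals of 144, 63.1, 146 and 80.0 in control and of 1826, 1457, 1760 and 1033 in the combined arm on days 0, 1, 2 and 5. All 4 control signals were below the median of their array and all 4 combined-arm signals above its upper quartile. The mean log2 difference was 3.15 ± 0.27 (SD over 4 days). Since the control signals were weak, its size rested on the pseudocount, with 3.87 without one and 2.33 with the median signal of 238. The difference was lowest on day 5, at 2.87, and highest on day 1, at 3.51.

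The other genes of the primary granule had far smaller differences. Elane, which encodes neutrophil elastase and is the next coding gene to Prtn3 on chromosome 10, had 434, 952, 812 and 726 in control and 594, 566, 823 and 915 in the combined arm. The arms overlapped, with Elane higher in the combined arm on days 0, 2 and 5 and lower on day 1, and a mean log2 difference of 0.01 ± 0.49 (SD over 4 days). All 8 Elane signals were above the median of their array. Mpo, the gene of myeloperoxidase, had 573, 431, 458 and 435 in control and 614, 704, 561 and 710 in the combined arm. It was higher in the combined arm on 4 of 4 days by a mean log2 difference of 0.40 ± 0.27, but its day 2 signal lay below the control signal of day 0. Cathepsin G (Ctsg), a further protease of this granule, was below the array median on all 8 arrays, with 33.6 to 95.3 in control and 41.6 to 170 in the combined arm. Ms4a3, a marker of granulocyte precursors, had 719 to 1114 and 807 to 920, with a log2 difference of -0.11.

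Ngp, the neutrophilic granule protein gene of the secondary granule, differed little at day 0 and more later. It had 1038, 868, 854 and 793 in control and 1118, 1198, 1351 and 1157 in the combined arm. The arms did not overlap, although the lowest combined-arm signal was 1.08 times the highest control signal. Its log2 difference was 0.10 at day 0 and 0.43, 0.62 and 0.51 on days 1, 2 and 5. Of the other genes of that granule, Camp was below the array median on all 8 arrays, with 13.2 to 14.5 in control and 12.8 to 29.9 in the combined arm. Lactotransferrin (Ltf) had 498 to 888 and 833 to 1038 (log2 difference 0.40, limma adjusted p = 0.304). On the list of secondary and tertiary granule genes, Mmp8 had 316 to 519 and 535 to 786 (0.58, limma adjusted p = 0.15). Of the 11 genes of this list besides Ngp that passed the filter, 10 were higher and 1 lower, with a median of 0.56. At an unadjusted limma p under 0.05, 7 were higher, against 6.12% of all genes. After adjustment limma called 2 higher, Lcn2 and Orm1, against 0.413% of all genes. These 2 and the haptoglobin gene Hp (0.52) are also on the list of acute phase genes of hepatocytes. Mmp9 had 0.07, and the 1 lower gene was Fcnb at -0.04.

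Lyz2, the lysozyme of macrophages, monocytes and neutrophils, was similar in both arms at day 0 and higher in the combined arm later. It had 2534, 1281, 1994 and 2495 in control and 2450.0, 2692, 3700 and 5951 in the combined arm. In control the signal was below day 0 on each later day, lowest on day 1, while in the combined arm it was above day 0 on each and highest on day 5. The log2 difference was -0.05 at day 0, 1.03 at day 1, 0.87 at day 2 and 1.23 at day 5. The day 5 combined array is also the one with the highest actin ratio. C1qa had the largest mean difference between the arms of 14 markers of resident macrophages (Kupffer cells). It had 1969, 1183, 1356 and 2917 in control and 2861, 2841, 4172 and 4280.0 in the combined arm. The summed signal of the 14 Kupffer cell markers was 22948 to 39532 in control and 34224 to 57212 in the combined arm. Bright probe sets, such as that of Cd5l, weigh most in this sum. The median log2 difference of the 14 markers was also smallest at day 0, at 0.13, and was 0.71, 0.88 and 0.5 on days 1, 2 and 5. For genes shared by all leukocytes it was 0.16 at day 0 and 0.49, 0.59 and 0.34 later. The part of Kupffer cells and other leukocytes in the Lyz2 signal was not tested.

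Itgam, shared by monocytes, neutrophils and other myeloid cells, and Ccr2, a receptor of classical monocytes, were near background. The Itgam probe set was below the array median on all 8 arrays, with 136, 134, 88.7 and 98.7 in control and 184, 188, 39.8 and 135 in the combined arm, and it did not pass the filter on low signals. Ccr2 had 4 probe sets, of which 1 passed the filter. It gave 508, 218, 142 and 197 in control against 263, 303, 208 and 170 in the combined arm, so the control array of day 0 was the highest of the 8. Its log2 difference was -0.80 at day 0 and 0.37, 0.39 and -0.15 on the later days. The other 3 Ccr2 probe sets had mean differences of 0.09, -0.29 and 0.41, and the arms overlapped on all 4. These signals show no direction for either gene.

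Ccl9 behaved unlike the other 9 genes, rising after TCPOBOP in both arms and lying lower in the combined arm. It had 3415, 18704, 24564 and 16613 in control on days 0, 1, 2 and 5, and 1901, 7567, 8283 and 14691 in the combined arm. On the scale of signal + 71, control thus stood 5.39-fold above day 0 on day 1, 7.07-fold on day 2 and 4.79-fold on day 5, and the combined arm 3.87-, 4.24- and 7.49-fold. A level at least 2-fold above day 0 on all 3 later days was found for 1.15% of all genes in control and 0.76% in the combined arm, and for Ccl9 alone among the 10 in either. The signal was lower in the combined arm on 4 of 4 days, by log2 differences of -0.82, -1.30, -1.56 and -0.18. Its second probe set gave 1022, 5804, 10336 and 4339 in control against 935, 2774, 3131 and 3611 in the combined arm, with the same order of the arms on each day. The next coding gene on that chromosome, Ccl6, a chemokine of the same family, lay the other way, with 287 to 426 in control and 597 to 742 in the combined arm. Its log2 difference was 0.82 (limma adjusted p = 0.0859).

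**Figure D2:**
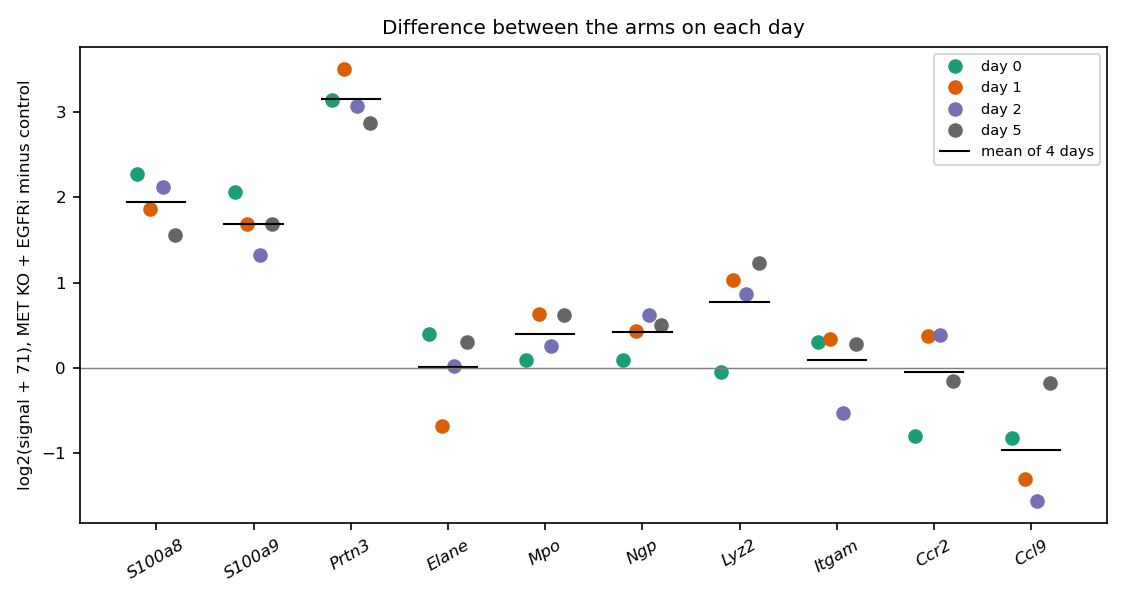
Difference between the arms in log2(signal + 71), MET KO + EGFRi minus control (vertical axis), for each of the 10 genes (horizontal axis). Points are the 4 days and bars their mean. Prtn3, S100a8 and S100a9 lie above 1 on each day, Lyz2 lies near 0 at day 0 and Ccl9 lies below 0 on each day.

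Set against all genes, the 10 fell into unlike classes. On 4 of 4 days, 5 were higher in the combined arm (S100a8, S100a9, Prtn3, Mpo and Ngp), as were 9.92% of the 12112 genes that passed the filter, and Ccl9 was lower, as were 10.3%. All 4 combined-arm signals exceeded all 4 control signals for 4 of the 10 (S100a8, S100a9, Prtn3 and Ngp), against 3.5% of all genes, and 0 of the 10 lay wholly below control, against 2.75%. On days 0, 1, 2 and 5, in that order, 3, 4, 3 and 4 of the 10 were at least 2-fold higher (in signal + 71) in the combined arm, against 2.64%, 2.89%, 2.88% and 2.25% of all genes. S100a8, S100a9 and Prtn3 were so on 4 of 4 days, as were 0.239% of all genes, and Lyz2 on days 1 and 5. Ccl9 was at least 2-fold lower on days 1 and 2, as were 2.63% and 2.03% of all genes. Of the 10 genes, 9 passed the filter, a mean log2 signal of at least 8.24, and Prtn3 did so through its combined-arm signals.

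Between successive days the 10 genes did not move as a block. In control, 4 of the 10 were higher on day 1 than on day 0 (46.5% of all genes were), 5 on day 2 than on day 1 (48.1%) and 4 on day 5 than on day 2 (54.3%). In the combined arm, 6 were higher on day 1 than on day 0 (52% of all genes), and 7 at each of the later steps (49.2% and 51.3%). A change of at least 2-fold in signal + 71 between successive days was seen in control for Elane and Ccl9, higher on day 1 than on day 0, and for Ccr2, lower on day 1. In the combined arm it was seen for Ccl9, higher on day 1 than on day 0, and for Itgam, whose signals were all below the array median and which was lower on day 2 than on day 1. The calgranulins had the same sign at each step in the combined arm, but in control S100a8 was lower on day 2 than on day 1 while S100a9 was higher, and from day 2 to day 5 the reverse.

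**Figure D3:**
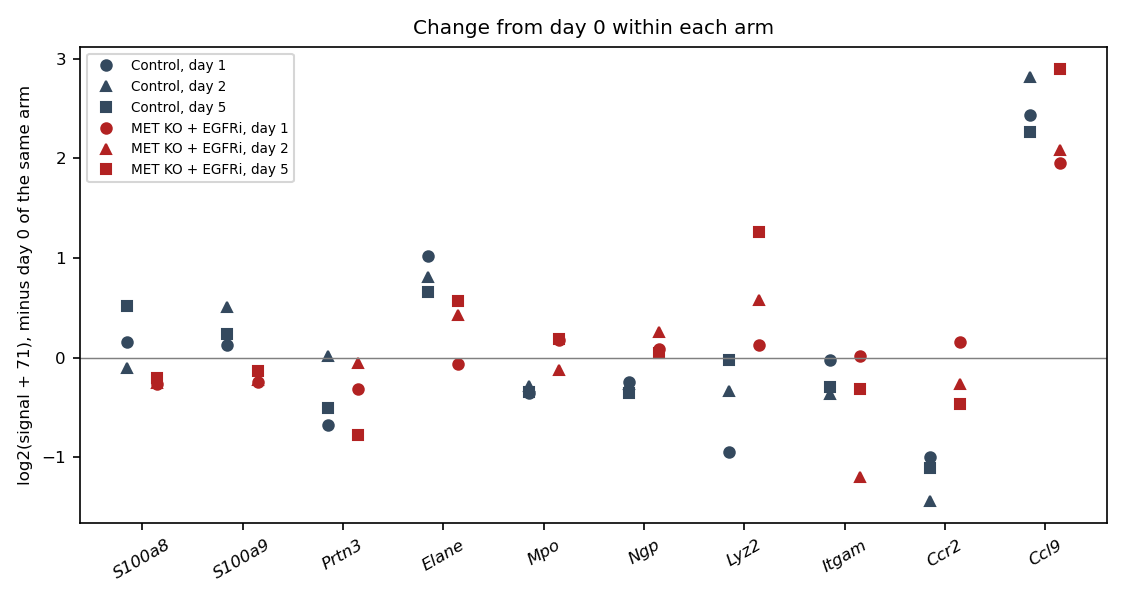
Change in log2(signal + 71) from day 0 of the same arm (vertical axis) for each of the 10 genes (horizontal axis), with control in dark blue and MET KO + EGFRi in red, and circles, triangles and squares for days 1, 2 and 5. Ccl9 lies near 2 or above in both arms, whereas the calgranulins stay within about 0.5 of day 0. Lyz2 lies above 0 in MET KO + EGFRi, and in control below 0 on days 1 and 2 and close to 0 (-0.02) on day 5.

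The change after TCPOBOP, averaged over both arms, was tested with limma in a fit with arm and day as terms. Ccl9 rose by 2.41 ± 0.26 (SE) on the log2 scale for days 1, 2 and 5 against day 0 (adjusted p = 0.0155), the 10th largest increase of 12112 genes. It was the sole call among the 10, where 0.421% of all genes were called higher and 0.0661% lower, 0.487% in all. Against day 0 the adjusted p was 0.0635 on day 1, 0.0731 on day 2 and 0.0268 on day 5, where 0.124%, 0.0578% and 0.33% of all genes were called. These comparisons share the day 0 arrays. The call was lost without the control array of day 0 (log2 change 2.31, adjusted p = 0.125) or day 1 (2.33, 0.0632) or the combined array of day 0 (2.50, 0.126). Over all probe sets without a filter, the Ccl9 probe sets had log2 changes of 2.41 and 2.12, with adjusted p of 0.0721 and 0.145.

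The other genes did not pass that test. Elane had a log2 change of 0.57 ± 0.22 (SE, adjusted p = 0.444) and Ccr2 of -0.69 ± 0.29 (0.482). Prtn3 had -0.39 ± 0.18 (0.55), and S100a8, S100a9, Mpo, Ngp and Lyz2 lay between -0.12 and 0.11, with adjusted p of 0.88 to 0.982. Whether the change after TCPOBOP differed between the arms was tested as an interaction with 2 residual degrees of freedom. limma called 0 of 12112 genes, with 543, or 4.48%, at an unadjusted p under 0.05. Lyz2 had the smallest p of the 10, with a log2 difference in response of 1.09 ± 0.31 (SE, limma unadjusted p = 0.00922, adjusted p = 0.982). Lyz2 and Ngp lay below day 0 on all 3 later days in control and above it in the combined arm, as did 5.87% of all genes. S100a9 did the reverse, as did 3.98%, which makes 9.85% of all genes with opposite directions.

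Genes whose profile over the 8 arrays was most like that of S100a8 or Prtn3 were ranked by the root mean square difference of log2 values, each gene centred on its mean, over 12111 other genes. This measure favours genes with a difference of like size between the arms. S100a9 was the second nearest to S100a8, at 0.265, between the secreted liver protein gene Fgl1 at 0.259 and Gpcpd1 at 0.294, and followed by Acsl6 and the acute phase gene Itih3. Fgl1 had 6255 to 8966 in control and 21444 to 24154 in the combined arm. Nearest to Prtn3 was Orm2, an acute phase gene of hepatocytes, at 0.478, followed by Acsl6, the formin gene Inf2, Saa3 and Mmd2. In control, Acsl6 (51.7 to 79.2) and Mmd2 (79.1 to 118) were below the array medians. Like Prtn3, they passed the filter through their combined-arm signals. From S100a8, Prtn3 ranked 183rd, Lyz2 275th, Ngp 526th, Mpo 593rd, Elane 6889th, Ccr2 9225th and Ccl9 12087th. From Prtn3, S100a8 ranked 9th and S100a9 14th, ahead of Lyz2 at 274th, Ngp at 529th and Mpo at 661st. Ccr2 ranked 7344th from Prtn3, its chromosomal neighbour Elane 7945th and Ccl9 12091st.

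Other genes of neutrophils, taken from lists on granules and mature cells, were tested between the arms, where limma called 50 genes higher (0.413%) and 20 lower (0.165%), 0.578% in all. Of 39 with a probe set, 14 were below the array median on all 8 arrays and 20 passed the filter. Lcn2 and Orm1 were the 2 that limma called, both higher in the combined arm, and both are also products of hepatocytes in the acute phase. Lcn2 had 622, 743, 525 and 911 in control and 34565, 36042, 7771 and 5470.1 in the combined arm, far above control on each day but lower on days 2 and 5 than before (log2 difference 4.33, adjusted p = 0.00989). The call was lost without either array of day 1. Orm1 had 10568 to 16207 and 30550 to 33808 (1.25, adjusted p = 0.0112), and stayed called in 2 of 8 fits that left out 1 array, those without an array of day 2. Of the 17 genes outside the list of acute phase genes, limma called 0, and 7 were higher at an unadjusted p under 0.05. Of the same 17, 13 had a mean above control, with a median log2 difference of 0.40. Over all 12112 genes the median was 0.00, and 6.12% were higher at an unadjusted p under 0.05.

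Those genes had small differences beside that of Prtn3. The oxidase subunit genes Cybb and Cyba had log2 differences of 0.74 and 0.89 (limma adjusted p = 0.131 and 0.39). Cathepsin C (Ctsc), which activates the granule proteases, had 6662 to 8565 in control and 9918 to 12337 in the combined arm (0.46, adjusted p = 0.26). Among genes of mature neutrophils, Wfdc21 had 0.68, Clec4d 0.44, the formyl peptide receptor gene Fpr2 0.40 and Trem3 0.16, with limma adjusted p of 0.191 to 0.823. Of the 7 genes of that list besides the calgranulins that passed the filter, 5 were higher and 2 lower, with a median of 0.16. The 2 lower were Asprv1 at -0.13 and Il1b at -0.03. The Wfdc21 signals were 11858 to 23187 in control and 21032 to 30432 in the combined arm. Which cells of the liver gave them was not tested. The receptor gene Csf3r had 638 to 851 and 631 to 924 (0.15, adjusted p = 0.754), and Cxcr2 was above the array median on 2 of 8 arrays.

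Other monocyte genes were mostly a little higher in the combined arm, in 15 of 16 that passed the filter, with a median of 0.37. The 1 lower was Cx3cr1 at -0.30, and Irf8 and Ms4a6c lay near 0, at 0.03 and 0.07. At an unadjusted limma p under 0.05, 7 of the 16 were higher and 0 lower, where 6.12% of all genes were higher. The sole call was the lipopolysaccharide co-receptor gene Cd14, with 688 to 1062 in control and 1228 to 2172 in the combined arm (log2 difference 0.93, adjusted p = 0.0298). It was called in 0 of 8 fits that left out 1 array, with adjusted p of 0.0541 to 0.237. The Fc receptor gene Fcgr3 had 0.96 (adjusted p = 0.0588), Lyz1, which neighbours and closely resembles Lyz2 so that their probe sets may share transcripts, 0.61 (0.286) and the coagulation factor gene F13a1, a marker of classical monocytes, 0.16 (0.746). Kupffer cell markers had a median of 0.60, with 14 of 14 above control and Cd5l called (0.95, adjusted p = 0.0468), again in 0 of 8 fits that left out 1 array (0.0732 to 0.321). Of the 14 Kupffer cell markers, 8 were higher and 0 lower at an unadjusted limma p under 0.05. Genes shared by all leukocytes had a median of 0.30, with 8 of 9 above control, 0 called by limma and 4 at an unadjusted p under 0.05. Among these genes Tyrobp had 0.61 (adjusted p = 0.181) and Ptprc 0.44 (0.32).

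Markers of other blood cells had medians near 0. The median log2 difference was 0.04 for lymphocyte and NK cell genes (6 passing the filter), -0.04 for dendritic cell genes (7), -0.07 for genes of mast cells, basophils and eosinophils (5) and -0.09 for erythroid genes (5). limma called 0 genes in each of these 4 lists, and 0 were past an unadjusted p of 0.05. Hepatocyte markers had a median of 0.18, and acute phase genes had 1.01 with 9 of 18 called higher, where 0.413% of all genes were. That count was 4 when either array of day 1 was left out, 5 for either of day 0 and 6 for any of days 2 and 5, and Saa1, Saa3 and Orm2 stayed called in all 8 of these fits. The part of leukocyte number and of hepatocyte expression in the signals of the 10 genes was not tested.

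**Figure D4:**
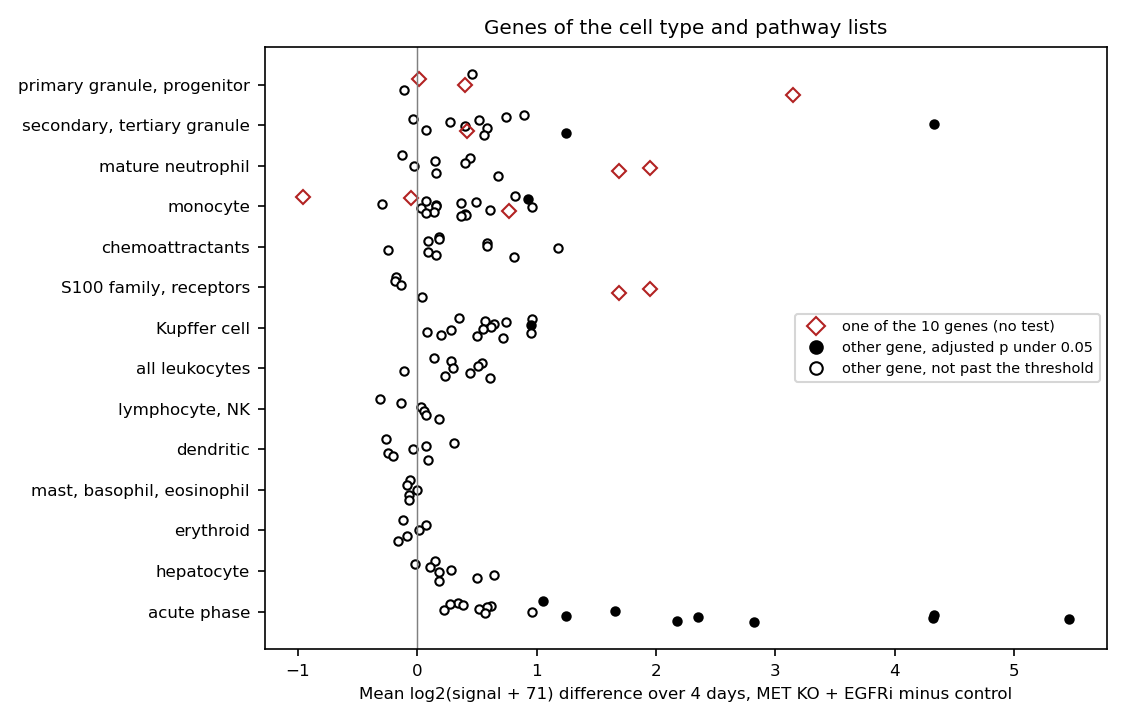
Mean log2(signal + 71) difference over the 4 days, MET KO + EGFRi minus control (horizontal axis), for genes of each list that passed the filter (rows). Open diamonds are genes among the 10, filled circles other genes with a limma adjusted p under 0.05 and open circles other genes. Prtn3 lies right of the other genes of the primary granule row and S100a8 and S100a9 right of those of the mature neutrophil row, while Lcn2 lies furthest right in the secondary granule row.

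Signals that could draw neutrophils and monocytes were read from 24 genes of chemoattractants, growth factors and adhesion molecules. Of these, 10 passed the filter and 11 were below the array median on all 8 arrays, among them Cxcl2, Cxcl5, Csf3 and Il6. Of the 10, 9 were higher in the combined arm, with a median of 0.18. limma called 0, where 0.413% of all genes were called higher. At an unadjusted limma p under 0.05, 4 were higher, against 6.12% of all genes. The neutrophil chemokine gene Cxcl1 had 1905, 2107, 1151 and 1763 in control and 8513, 6110.0, 2044 and 2165 in the combined arm, so that it stood far above control on days 0 and 1 and closer to it later (mean log2 difference 1.18, adjusted p = 0.152). The adhesion gene Vcam1 had 0.81 (adjusted p = 0.141), the chemokine gene Ccl8 0.58 (0.232) and Csf1, the growth factor of monocytes, 0.58 (0.291). Of other S100 genes, the 3 that passed the filter had log2 differences of -0.19 for S100a10, -0.18 for S100a1 and -0.14 for S100a13, and the calprotectin receptor gene Tlr4 had 0.04, with adjusted p of 0.724 to 0.942. Of those that did not pass it, S100a6 had 121 to 171 in control against 207 to 289 in the combined arm (0.58), and S100a4 had -0.23. The arms did not overlap for S100a6, with the combined arm higher, as for 3.5% of the genes that passed the filter.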

How the data were processed

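Each of 8 Affymetrix arrays measured cRNA from 6 µg of total RNA of pooled livers, 1 array per arm and day. The deposited intensity values are MAS5 signals per the submitters' processing notes, 1 per probe set, on a linear scale. In each array their mean after trimming 2% at each end is 500. The version of MAS5, masking and detection calls are not given in the sources used here.

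Of 45101 probe sets, 64 controls were left out. The platform annotation gave a single symbol for 34945 of the remaining 45037, several for 932 and listed no entry for 9160. Where a gene had several probe sets, the brightest by mean log2(signal + 71) stood for it. Genes whose mean fell under 8.24, the median over probe sets, were dropped, and 12112 of 18193 stayed.

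An additive model of arm and day was fitted in limma 3.58.1 under R 4.3.3, with 3 residual degrees of freedom and a variance trend. A second model added an interaction of arm with days after TCPOBOP, and p-values were adjusted over all genes kept (Benjamini-Hochberg). They rest on the spread between days, not between animals. The fits were tested on simulated data. The 10 genes, the lists and the rule for naming genes were chosen with earlier results of these data known. From each list the up to 4 genes with the largest difference between arms and any called gene were named, beside the 5 genes nearest to S100a8 and to Prtn3. Met, Ctsg, Camp, Ltf, Mmp8, Cxcr2, Csf3r, F13a1, S100a4, S100a6, Cxcl2, Cxcl5, Csf3 and Il6 fall outside that rule and were named after their values were seen. The same holds for Hp, Fcnb, Mmp9, Asprv1, Il1b, Cx3cr1, Irf8 and Ms4a6c. Motifs were searched in RefSeq upstream sequences, which matched all 10 genes. Alternatives were other pseudocounts, filters, probe set summaries and scaling, no trend, and leaving out each array. Leaving out either array of a day gave the same difference between the arms, for S100a8 1.85 without either array of day 0. The 8 fits that left out 1 array thus hold 4 distinct estimates of that difference.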

Additional observations from a re-analysis of the deposited data

Results flagged for a closer look

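For 3 of the 10 genes each later day lay on one side of day 0 in control and on the other in MET KO + EGFRi, as for 9.85% of all genes. For Lyz2 the mean log2 change from day 0 was -0.43 in control and 0.66 in MET KO + EGFRi, a difference of 1.09. Its change in control on day 5 was close to 0, at -0.02. For Ngp the changes were -0.29 and 0.13, a difference of 0.42. For S100a9 they were 0.29 and -0.20, a difference of -0.49, which brought the arms closer than at day 0. In limma's test of this difference none of the 3 passed, with adjusted p of 0.982 for Lyz2 and 0.999 for Ngp and S100a9.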

How the results depend on the processing

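The 70 genes called between the arms became 28 without a filter, and 20 to 57 when 1 array was left out, and the 59 called for days 1, 2 and 5 against day 0 became 35 with the mean of probe sets, 26 without a filter and 34 without a variance trend, and 4 to 49 when 1 array was left out. With a filter at the upper quartile these counts rose to 90 between the arms and 84 for days 1, 2 and 5 against day 0. The interaction called 0 genes under each alternative that gave a value, and could not be fitted without an array of day 0. The mean difference of Prtn3 between the arms rose to 3.87 with no pseudocount and fell to 2.33 when the median signal was used instead, and those of 8 other genes moved by less than their SD over days. For Itgam, which did not pass the filter, the fit without a filter was the sole alternative. The change of S100a8 from day 0, at -0.02, was 0.01 after quantile normalization. When 1 array was left out, the change ran from -0.23 to 0.19 for S100a8, from -0.20 to 0.29 for S100a9, from -0.33 to 0.08 for Mpo, from -0.29 to 0.13 for Ngp and from -0.43 to 0.66 for Lyz2, with no call. For these 5 genes both ends came from fits without an array of day 0, where the change is that of the other arm alone. The cause of the other shifts was not tested. Animals could not be paired, since each array was a pool of livers. The arms were matched by day in the additive model. With 8 arrays, and no detection calls, signals below the array median give no firm direction.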
